A study of Homo sapiens with 4 samples.

Results

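The mitosis and spindle genes are 50 genes chosen by name: the kinases and cyclins that drive G2/M, the kinetochore and spindle checkpoint proteins, the motors of the spindle and the factors of cytokinesis. Every one of the 50 was found among the 18806 gene symbols of the expression table. RNA was sequenced from Huh7, a human hepatocellular carcinoma cell line. Cells of a single clone that stably expressed Cas9, selected in hygromycin, carried either a non-targeting guide (sgNS, 2 libraries, genotype WT in the labels) or a guide against METTL16 (METTL16 KO, 2 libraries, genotype METTL16 knockdown in the labels). By the methods all 4 libraries share the Cas9 clone. The labels number the 2 libraries of each group, and they do not say whether the knockout numbers also stand for different METTL16 guides. METTL16 is an RNA methyltransferase that deposits N6-methyladenosine on U6 snRNA and on the MAT2A transcript. The comparison asks how its loss changed the RNA levels of the genes that carry a cell through division.

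Mitosis is run by a small set of kinases. Cyclin B binds CDK1, CDC25 phosphatases switch the pair on, and Polo and Aurora kinases build the spindle. The kinetochore ties each chromosome to spindle microtubules, and the spindle assembly checkpoint holds back CDC20 and the anaphase-promoting complex until every kinetochore is attached. Separase then cuts cohesin, and the central spindle and the contractile ring divide the cell. Messenger RNAs of these proteins peak together in G2 and mitosis, and they are commonly high in hepatocellular carcinoma and in dividing cell lines. In bulk RNA, fewer cells in mitosis and less of a transcript per cell cannot be told apart.

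Expression was given in TPM, a transcript abundance that is a share of a fixed total of 1000000 per library and is already divided by gene length. The libraries' depth is unknown. METTL16 (chr17:2405562-2511891, minus strand, GRCh38) stood at 26.3 and 25.1 TPM in the sgNS libraries against 17.6 and 18.8 TPM in the METTL16 KO libraries. Both knockout libraries were below both controls, and the log2 fold change was -0.50 ± 0.062 (SE, n = 2 per group, limma adjusted p = 2.43e-05). All 9 liver-lineage markers checked, ALB and AFP among them, were at 160 TPM or more in every library, with 7 of them called higher and 2, TF and APOB, called lower in METTL16 KO. Their summed level was 18049 to 18139 TPM in sgNS and 30899 to 31365 TPM in METTL16 KO, and the largest part of the difference was AFP, at 1737 and 1793 TPM in sgNS against 10387 and 10197 TPM in METTL16 KO. Of 8 markers of blood, endothelial and stromal cells, 4 stayed under 1 TPM in every library (PTPRC at most 0.48, VWF at most 0.04), and the sum of all 8 was 9.94 to 11.2 TPM in sgNS and 13.99 to 15.7 TPM in METTL16 KO. These markers went opposite ways: CD68 was at 3.4 and 2.72 TPM in sgNS against 8.86 and 8.57 TPM in METTL16 KO, while PECAM1 was at 5.14 and 4.74 TPM against 3.09 and 2.70 TPM. Their part in the results was not tested. The median gene rose in TPM, by 0.16 on the log2 scale over the 11971 genes that averaged 1 TPM or more. Each change is therefore given on the TPM scale as deposited and, where stated, relative to the median gene (after median-ratio scaling, which lowers the log2 fold changes of the 50 by about 0.16).

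Genes of this group are known for promoters that carry a CCAAT box, bound by NF-Y, close to a cell cycle genes homology region (CHR), bound by the DREAM and MuvB complexes and, through them, by B-MYB and FOXM1. RefSeq promoter windows (GRCh38.p14, 250 bases before to 50 after each start) were at hand for 42 of the 50 genes, in 54 windows, since 7 genes have several starts. The letters TTTGAA or TTCGAA, on either strand, were searched for the CHR and CCAAT, on either strand, for the CCAAT box. CHR letters were found in 66.7% of the 54 windows, against 16.4% of all 35116 promoter windows and 12.3% of the 13632 windows of genes tested. CCAAT letters were found in 74.1% of the windows, against 34.6% and 35.0%. Both stood together in 53.7%, against 6.38% and 4.99%, and neither in 13.0%, against 55.4% of all windows.

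**Figure D1:**
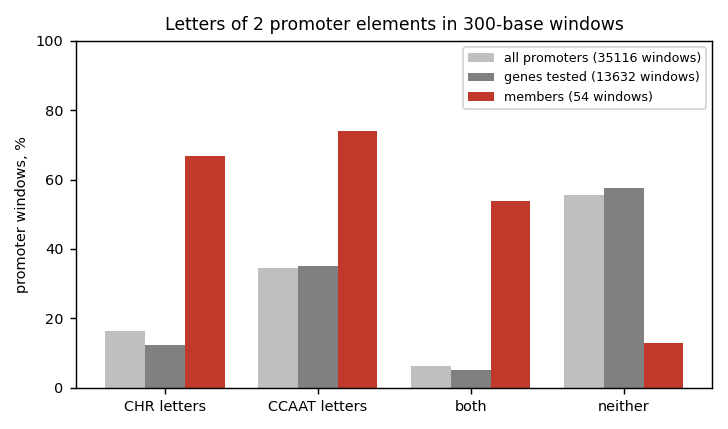
Share of 300-base promoter windows, in percent, that hold CHR letters, CCAAT letters, both or neither, for all RefSeq promoters, for genes tested and for the 42 mitosis and spindle genes with a window (members). Both sets of letters stood in 53.7% of the members' windows and in 6.38% of all windows.

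The promoters of 8 of the genes that results turn on follow, from 130 bases before to 30 after the start, each in the direction of its gene, with CHR and CCAAT letters in capitals. The first 4 belong to genes that were lower in METTL16 KO and the last 4 to genes that were higher, and they were chosen after the values were seen.
CCNB2: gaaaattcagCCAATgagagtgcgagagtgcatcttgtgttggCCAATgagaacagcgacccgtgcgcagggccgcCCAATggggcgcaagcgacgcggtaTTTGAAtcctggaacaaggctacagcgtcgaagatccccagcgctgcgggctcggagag
KIF23: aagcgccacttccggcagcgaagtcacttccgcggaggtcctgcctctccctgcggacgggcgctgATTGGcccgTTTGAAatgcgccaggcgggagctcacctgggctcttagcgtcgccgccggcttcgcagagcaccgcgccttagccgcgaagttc
BUB1B: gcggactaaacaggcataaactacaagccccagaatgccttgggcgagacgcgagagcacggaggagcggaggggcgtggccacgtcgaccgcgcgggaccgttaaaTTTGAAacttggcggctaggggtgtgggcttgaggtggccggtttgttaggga
ESPL1: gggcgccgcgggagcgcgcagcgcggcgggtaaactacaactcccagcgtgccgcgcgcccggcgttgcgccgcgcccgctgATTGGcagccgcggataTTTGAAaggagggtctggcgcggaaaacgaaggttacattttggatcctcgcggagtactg
ANLN: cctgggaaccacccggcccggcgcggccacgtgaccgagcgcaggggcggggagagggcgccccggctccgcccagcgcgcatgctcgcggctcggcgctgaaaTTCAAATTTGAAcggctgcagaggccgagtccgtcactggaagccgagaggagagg
KIF4A: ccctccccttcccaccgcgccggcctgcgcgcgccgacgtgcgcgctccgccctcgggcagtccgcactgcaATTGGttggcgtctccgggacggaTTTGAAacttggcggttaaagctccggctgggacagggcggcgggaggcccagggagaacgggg
CDCA8: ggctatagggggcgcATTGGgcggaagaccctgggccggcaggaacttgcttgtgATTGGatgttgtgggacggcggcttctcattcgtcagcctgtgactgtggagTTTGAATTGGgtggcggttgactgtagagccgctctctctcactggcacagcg
CENPE: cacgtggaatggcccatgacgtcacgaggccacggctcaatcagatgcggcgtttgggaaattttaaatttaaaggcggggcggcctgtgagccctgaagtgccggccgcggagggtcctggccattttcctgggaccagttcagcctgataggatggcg
CCNB2 (chr15:59105016-59105175, plus strand) holds 3 CCAAT boxes in this stretch, with CHR letters that begin 29 bases before its start. KIF23 (chr15:69414219-69414378, plus), ESPL1 (chr12:53268169-53268328, plus) and KIF4A (chrX:70289974-70290133, plus) each hold 1 CCAAT box in reverse and 1 CHR. BUB1B (chr15:40160939-40161098, plus) and ANLN (chr7:36389732-36389891, plus) hold CHR letters without a CCAAT box, and those of ANLN are a pair that lies end to end on opposite strands. In CDCA8 (chr1:37692386-37692545, plus) the CHR letters share bases with a reversed CCAAT box, and 2 more reversed boxes lie farther from the start. CENPE (chr4:103198314-103198473, minus) has no match to either set of letters. Both sets of letters stood in 31.2% of the 16 windows of genes lower under every scaling (12 genes). They stood in 53.8% of the 13 windows of genes higher under every scaling (9 genes) and in 68.0% of the 25 windows of the rest (21 genes). The median log2 fold change in TPM was 0.069 over the 27 genes with both sets of letters and -0.022 over the 15 without. For CCAAT letters, whether or not a CHR was present, the order was the other way, with 0.042 over 35 genes against 0.22 over 7 without. For CHR letters, counted likewise, the medians were 0.069 over 33 genes and -0.022 over 9 without. All of these are descriptions of the windows.

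All 50 genes were expressed, with sgNS means from 11.9 TPM for CENPE to 375 TPM for PTTG1, and all 50 passed the filter on low values. At an adjusted p under 0.05, 14 of the 50 (28%) were lower in METTL16 KO and 21 (42%) were higher. Over all genes tested the shares were 25.6% lower and 50.1% higher, so in TPM neither share of the mitotic genes lay far from that background. Fewer genes were called lower without METTL16 KO replicate 2, a fit whose share over all genes was not counted. Relative to the median gene, 26 of the 50 (52%) were lower and 10 (20%) higher, against 36.5% and 36.4% of all genes. Again fewer were called lower without METTL16 KO replicate 2. The shares of 52% and 20% lay farther from their background than those in TPM did. Under each of 3 scalings (TPM as deposited, median-ratio and quantile), 14 genes (28%) were lower and 10 (20%) higher. Over all genes these shares were 25.3% and 34.8%. The 24 genes called under all 3 scalings kept their direction in all 12 alternatives. Median-ratio scaling and quantile normalization are among the 12 and also chose these genes, so neither could have reversed them. Some of their calls were lost in other alternatives, as given below for PLK4, BUB3, UBE2C, PTTG1, NDC80 and KIF20A. In the annotation 12 of the 50 share exonic bases with another protein-coding gene, among them BUB1B, SPC24, KIF20A, KIF4A, NUSAP1 and ANLN of those 24, and their reads could be shared with it.

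The changes were small beside those of all genes tested. The 50 were more abundant, with a median sgNS level of 52.1 TPM against 22.8 TPM, and the genes were not matched by level. No member reached a 2-fold change, while 11.5% of all genes were called at 2-fold or more. Log2 fold changes of the 50 ran from -0.51 to 0.81, with a median size of 0.22 against 0.36 over all genes, and 5 genes (10%) moved by 0.5 or more against 35.7% of all genes. The 2 knockout values did not overlap the 2 control values for 42 of the 50 (84%), near the background of 87.4% of all genes. The median log2 fold change of the 50 was 0.071 in TPM, below the 0.16 of all genes, and it was -0.095 after median-ratio scaling and -0.065 after quantile normalization, so its sign depends on the scaling. Their summed TPM was 3950 and 3997 in sgNS and 4250 and 4150 in METTL16 KO, that is 0.395%, 0.3997%, 0.425% and 0.415% of the total.

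**Figure D2:**
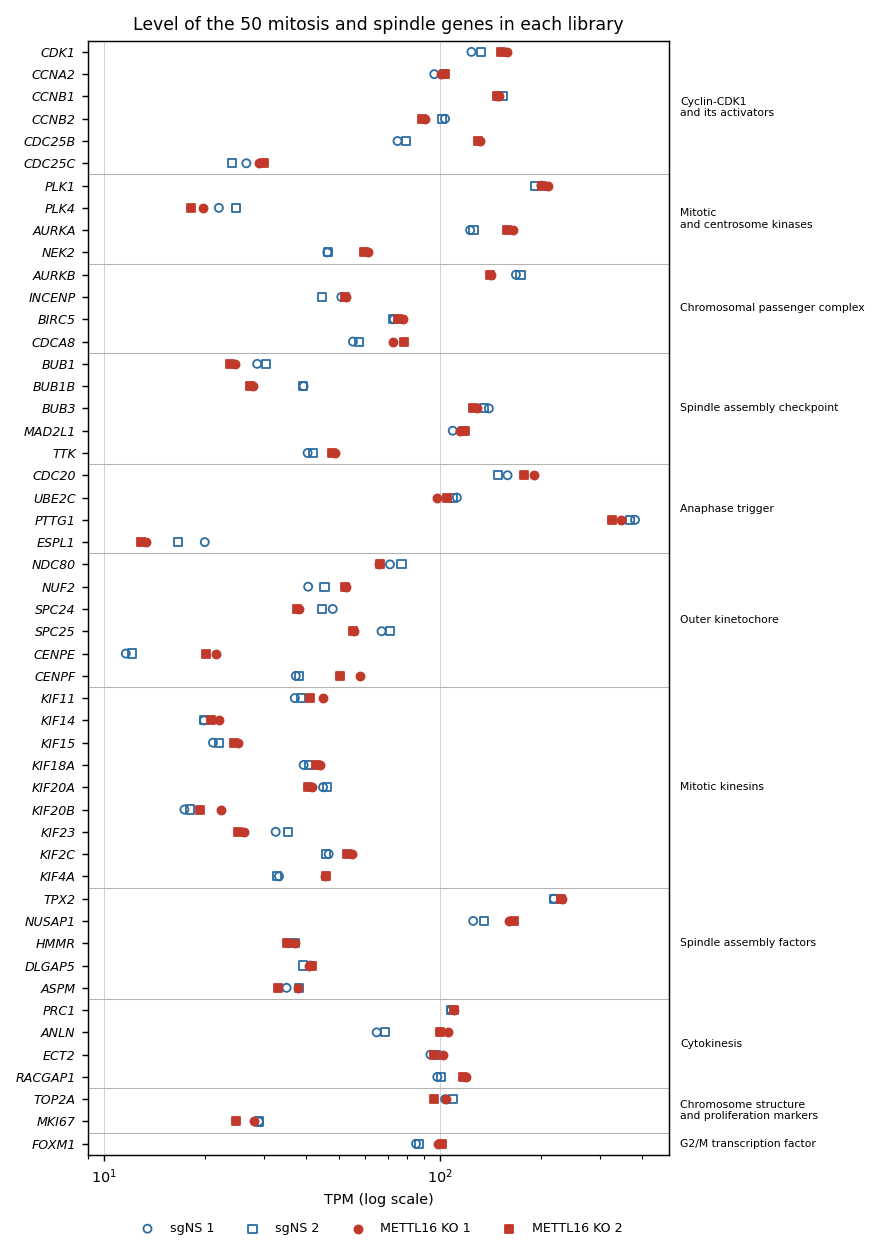
Level of each of the 50 genes in TPM (log axis) in the 4 libraries, with open blue symbols for sgNS and filled red symbols for METTL16 KO, grouped by role. PTTG1 is the most abundant at 326 to 381 TPM, and for most genes the 2 groups lie apart by much less than 2-fold.

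**Figure D3:**
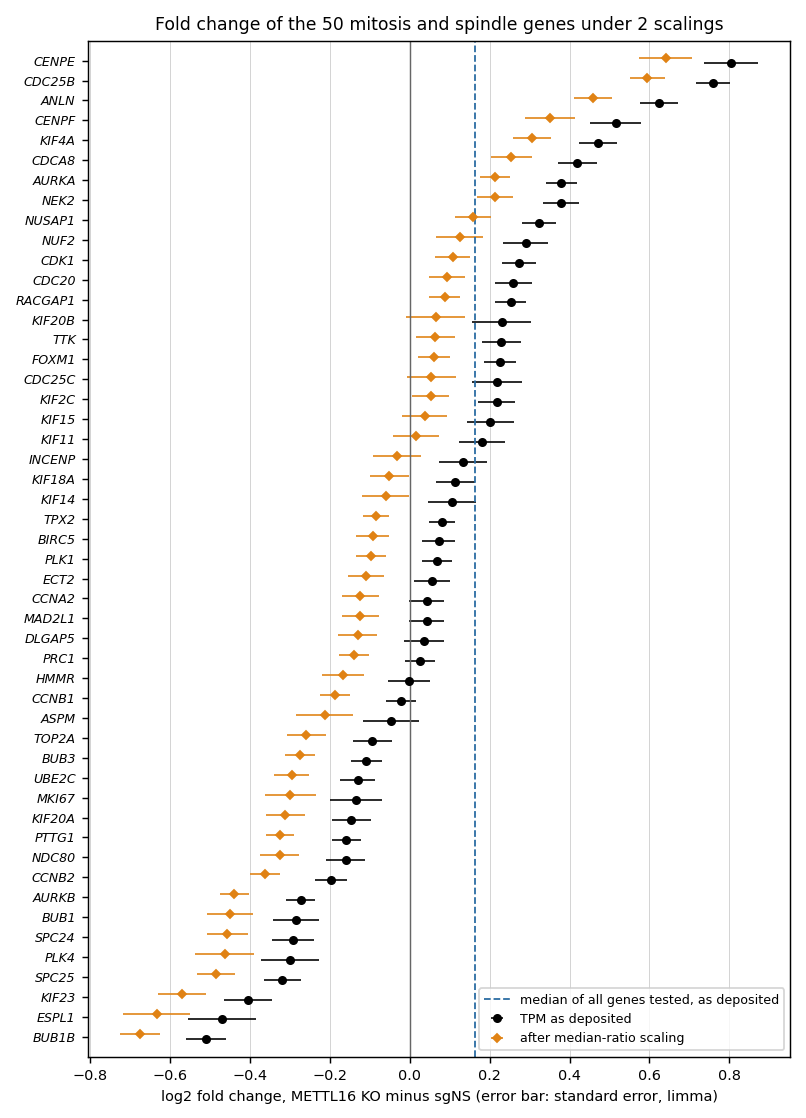
Log2 fold change of each gene, METTL16 KO minus sgNS, with limma's standard error as the bar, as deposited (black) and after median-ratio scaling (orange), and the median of all genes as the dashed line. The genes spread from -0.51 for BUB1B to 0.81 for CENPE as deposited, and genes near the middle, such as TPX2, change sign with the scaling.

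Within the cyclin and CDK1 module the kinase and an activator rose while a cyclin fell. CDK1, the kinase at the centre of mitotic entry (chr10:60778331-60794852, plus), was at 124 and 133 TPM in sgNS against 158 and 152 TPM in METTL16 KO. It rose, with a log2 fold change of 0.27 ± 0.043 (SE, adjusted p = 1.45e-04), or 0.11 relative to the median gene (adjusted p = 0.047). CDC25B, the phosphatase that starts CDK1 activation at the centrosome (chr20:3786772-3806121, plus), was at 74.8 and 79.5 TPM in sgNS against 132 and 129.9 TPM in METTL16 KO. Every knockout value lay far above both controls, and the log2 fold change of 0.76 ± 0.043 (adjusted p = 4.96e-08) was the largest rise but 1 among the 50 in TPM. CCNB2, a B-type cyclin whose promoter is shown above (chr15:59105126-59125045, plus), was at 104 and 101 TPM in sgNS against 90.3 and 88.5 TPM in METTL16 KO. It fell, by 0.20 ± 0.039 on the log2 scale (adjusted p = 8.78e-04), and by 0.36 relative to the median gene. CCNB1, the other main B-type cyclin, was at 148 and 154 TPM in sgNS against 149.8 and 148 TPM in METTL16 KO, so that the groups overlapped. Its log2 fold change was -0.022, with a 95% interval of -0.10 to 0.060, and relative to the median gene it was -0.19 (adjusted p = 0.0012). CCNA2, the cyclin of S phase and early mitosis, also overlapped, at 96.3 and 103 TPM against 101 and 104 TPM (0.042, adjusted p = 0.4, and -0.12 relative to the median gene, adjusted p = 0.032). CDC25C, another CDK1 phosphatase, was at 26.6 and 24.1 TPM in sgNS against 29.0 and 29.9 TPM in METTL16 KO (log2 fold change 0.22, adjusted p = 0.0079). It was not called relative to the median gene (0.054, adjusted p = 0.44) or, in TPM, without METTL16 KO replicate 2 (0.20, adjusted p = 0.091).

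The kinases that build the spindle also split. AURKA, the Aurora kinase of the centrosome and spindle poles (chr20:56369389-56392337, minus), was at 123 and 126 TPM in sgNS against 165 and 159 TPM in METTL16 KO. It rose by 0.38 ± 0.038 on the log2 scale (adjusted p = 4.91e-06). NEK2, a kinase that separates the centrosomes, stood at 46.3 and 46.5 TPM in sgNS against 61.1 and 59.6 TPM in METTL16 KO, a rise of the same size (0.38 ± 0.045, adjusted p = 1.68e-05). PLK4, the kinase that starts centriole duplication, went the other way, from 22.0 and 24.7 TPM to 19.8 and 18.2 TPM. It fell by 0.30 ± 0.073 (adjusted p = 0.0031), and without METTL16 KO replicate 2 the change of -0.24 was no longer called (adjusted p = 0.064). PLK1, the Polo kinase of mitotic entry and one of the most abundant of the 50, was at 201 and 192 TPM in sgNS against 209.9 and 202 TPM in METTL16 KO. Its change of 0.069 in TPM was not called (adjusted p = 0.12) and turned to -0.097 relative to the median gene (adjusted p = 0.035), while without sgNS replicate 1 it was 0.10 in TPM and called (adjusted p = 0.037).

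In the chromosomal passenger complex, which corrects faulty attachments and later marks the midzone, the kinase and a targeting subunit moved in opposite directions. AURKB, the kinase (chr17:8204733-8210600, minus), was at 169 and 174 TPM in sgNS against 142 and 141 TPM in METTL16 KO. It fell by 0.27 ± 0.036 (adjusted p = 3.89e-05), or by 0.44 relative to the median gene. CDCA8, which encodes borealin, stood at 55.2 and 57.6 TPM in sgNS against 72.7 and 78.2 TPM in METTL16 KO, and it rose by 0.42 ± 0.050 (adjusted p = 1.69e-05). The scaffold INCENP (0.13, adjusted p = 0.067, or -0.032 relative to the median gene) and survivin, BIRC5 (0.072, adjusted p = 0.14, or -0.093 relative to it), were called under neither scaling. Without sgNS replicate 1 the change of INCENP was 0.23 in TPM and called (adjusted p = 0.0023).

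A factor applied to a whole library, as in median-ratio scaling, cancels from the ratio of 2 members within it. Ratios of TPM were formed for 15 pairs picked after the values were seen, so they are descriptions with no test. AURKA stood at 0.731 and 0.725 of the level of AURKB in the sgNS libraries and at 1.17 and 1.12 of it in the METTL16 KO libraries, so the order of the 2 Aurora kinases was inverted in both knockout libraries, with a ratio 1.57 times that of sgNS. CDC25B stood at 0.722 and 0.784 of CCNB2 in sgNS and at 1.46 and 1.47 of it in METTL16 KO. CDCA8 to AURKB was 1.62 times as high in METTL16 KO, from a mean of 0.329 ± 0.0029 (SD, n = 2) to one of 0.533 ± 0.030.

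**Figure D4:**
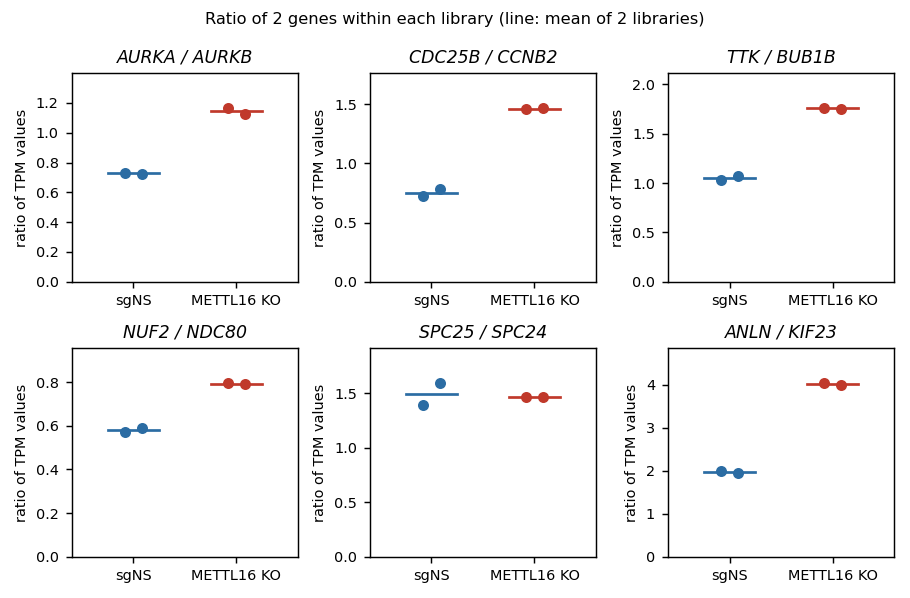
Ratio of the TPM values of 2 genes within each library, for 6 pairs, with each point a library and each line the mean of 2 libraries (axes start at 0). AURKA to AURKB goes from below 1 in both sgNS libraries to above 1 in both METTL16 KO libraries, ANLN to KIF23 is 2.04 times as high, and SPC25 to SPC24 overlaps between groups.

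Among the 5 checkpoint genes, 3 (60%) were lower in TPM, against 25.6% of all genes. Relative to the median gene 4 (80%) were lower, against 36.5%. The kinase at the top of the pathway, TTK, was lower under neither scaling. BUB1B, which encodes BubR1, the checkpoint protein that inhibits CDC20 (chr15:40161023-40221123, plus), was at 39.3 and 39.1 TPM in sgNS against 27.7 and 27.3 TPM in METTL16 KO. The replicates of each group nearly coincided, and the fall of 0.51 ± 0.050 on the log2 scale (adjusted p = 4.09e-06), 0.68 relative to the median gene, was the largest fall of the 50 under both scalings. BUB1B shares exons with PAK6 on the same strand in the annotation, so reads of the 2 could have been split. BUB1, the kinase that recruits BubR1 to kinetochores, was at 28.6 and 30.3 TPM in sgNS against 24.6 and 23.7 TPM in METTL16 KO, and it fell by 0.28 ± 0.057 (adjusted p = 9.15e-04). BUB3, the adaptor of both, went from 140.0 and 135 TPM to 129 and 126 TPM. Its fall was small (0.11 ± 0.038, adjusted p = 0.023) and was not called without 3 of the 4 libraries in turn (adjusted p = 0.072 without sgNS replicate 1, and 0.073 and 0.18 without METTL16 KO replicates 1 and 2). MAD2L1, the MAD2 protein held on CDC20, overlapped at 109 and 117 TPM against 115 and 119 TPM (0.042, adjusted p = 0.41, and -0.12 relative to the median gene, adjusted p = 0.034). TTK, the MPS1 kinase that starts checkpoint signalling, was higher as deposited, from 40.4 and 42.0 TPM to 48.8 and 47.8 TPM (0.23, adjusted p = 0.0012), though not relative to the median gene (0.064, adjusted p = 0.25). The ratio of TTK to BUB1B was 1.03 and 1.07 in sgNS and 1.76 and 1.75 in METTL16 KO.

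In TPM as deposited, 3 of the 4 genes of the anaphase trigger (75%) were lower, against 25.6% of all genes. The activator CDC20 was higher, as were 50.1% of all genes. PTTG1, securin, the inhibitor of separase and the most abundant of the 50, was at 381 and 368 TPM in sgNS against 345 and 326 TPM in METTL16 KO. It fell by 0.16 ± 0.036 (adjusted p = 0.0022), which was not called without METTL16 KO replicate 2 (adjusted p = 0.060). ESPL1, separase itself, was among the least abundant and fell further, from 19.98 and 16.7 TPM to 13.4 and 12.9 TPM (0.47 ± 0.086 on the log2 scale, adjusted p = 4.54e-04). UBE2C, the ubiquitin-conjugating enzyme of the anaphase-promoting complex, went from 112 and 109.8 TPM to 98.3 and 105 TPM. That fall of 0.13 ± 0.043 (adjusted p = 0.017) was not called without sgNS replicate 1 (adjusted p = 0.057) or without METTL16 KO replicate 1 (adjusted p = 0.21). CDC20, which the checkpoint restrains, was at 159 and 149 TPM in sgNS against 191 and 178 TPM in METTL16 KO. Its change was 0.26 in TPM (adjusted p = 3.74e-04) and 0.094 relative to the median gene (adjusted p = 0.081), and its ratio to PTTG1 was 1.34 times as high in METTL16 KO. A near-identical copy of PTTG1, PTTG2, was listed at 0 in all 4 libraries.

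In the outer kinetochore, 3 of 6 genes (50%) were lower and 3 (50%) higher in TPM, against 25.6% and 50.1% of all genes. The 3 lower genes are among the 4 of the NDC80 complex, and the large coiled-coil proteins that join it late rose. The NDC80 complex is the microtubule-binding rod made of NDC80, NUF2, SPC24 and SPC25. SPC25 was at 67.1 and 71.2 TPM in sgNS against 55.7 and 55.0 TPM in METTL16 KO, a fall of 0.32 ± 0.046 (adjusted p = 8.32e-05). Its direct partner SPC24 fell by nearly as much, from 48.0 and 44.6 TPM to 38.1 and 37.5 TPM (0.29 ± 0.052, adjusted p = 4.16e-04), and the ratio of SPC25 to SPC24 overlapped between groups (1.40 and 1.595 in sgNS, 1.46 and 1.46 in METTL16 KO). NDC80 (chr18:2571557-2616635, plus) went from 71.1 and 76.9 TPM to 66.1 and 66.2 TPM. That smaller fall of 0.16 ± 0.048 (adjusted p = 0.010) was not called without sgNS replicate 2 (adjusted p = 0.053) or either METTL16 KO library (0.085 without replicate 1 and 0.080 without replicate 2). NUF2, which pairs with NDC80 in the head of the complex, went the other way as deposited, from 40.6 and 45.4 TPM to 52.6 and 52.4 TPM. Its change was 0.29 ± 0.057 in TPM (adjusted p = 8.08e-04) and 0.12 relative to the median gene, where it was not called (adjusted p = 0.080). The 2 head subunits thus changed their ratio, since NUF2 stood at 0.571 and 0.590 of NDC80 in sgNS and at 0.796 and 0.791 of it in METTL16 KO.

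CENPE, the kinetochore kinesin that carries chromosomes to the metaphase plate (chr4:103105349-103198445, minus), was the least abundant of the 50 in sgNS, at 11.6 and 12.2 TPM, and stood at 21.5 and 20.2 TPM in METTL16 KO. It rose by 0.81 ± 0.068 on the log2 scale (adjusted p = 1.14e-06), the largest change of the 50 in TPM, and by 0.64 relative to the median gene, where the fall of BUB1B was larger. CENPF, the farnesylated protein that binds CENPE at kinetochores, was at 37.3 and 38.1 TPM in sgNS against 57.8 and 50.4 TPM in METTL16 KO. It rose by 0.52 ± 0.063 (adjusted p = 2.24e-05). The ratio of CENPE to NDC80 was 0.164 and 0.158 in sgNS and 0.326 and 0.305 in METTL16 KO.

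Besides CENPE, 9 mitotic kinesins were measured. Under all 3 scalings 1 of these (11.1%) was higher and 2 (22.2%) were lower, against 34.8% and 25.3% of all genes. KIF4A, the chromokinesin that also sets the length of the midzone (chrX:70290104-70420886, plus), was at 33.2 and 32.8 TPM in sgNS against 45.6 and 46.0 TPM in METTL16 KO. It rose by 0.47 ± 0.048 (adjusted p = 5.33e-06), and its close copy KIF4B was at 0.08 TPM or less throughout. KIF23, the MKLP1 motor of the centralspindlin complex (chr15:69414246-69448427, plus), was at 32.5 and 35.4 TPM in sgNS against 26.1 and 25.1 TPM in METTL16 KO. It fell by 0.40 ± 0.060 (adjusted p = 9.30e-05), or by 0.57 relative to the median gene. KIF20A, the MKLP2 motor that carries AURKB to the midzone, fell by less, from 44.9 and 46.2 TPM to 41.8 and 40.6 TPM. This change of -0.15 ± 0.048 (adjusted p = 0.017) was not called without sgNS replicate 2 (adjusted p = 0.0504) or without METTL16 KO replicates 1 and 2 (0.062 and 0.14). The ratio of KIF4A to KIF20A was 1.53 times as high in METTL16 KO. KIF11, the motor that pushes the spindle poles apart, and KIF15, which can share that task, with the depolymerase KIF2C and the cytokinesis kinesin KIF20B, had changes of 0.18 to 0.23 in TPM at adjusted p between 0.0014 and 0.016, and none of the 4 was called relative to the median gene. In TPM the calls of KIF11 and KIF20B were lost without sgNS replicate 1 (adjusted p = 0.063 and 0.069) and without METTL16 KO replicate 1 (0.19 and 0.21), and that of KIF15 without METTL16 KO replicate 1 (0.081). KIF14 (0.10, adjusted p = 0.14) and KIF18A (0.11, adjusted p = 0.054) were called under neither scaling, and both turned negative relative to the median gene. Without sgNS replicate 2 the change of KIF18A was 0.14 and called in TPM (adjusted p = 0.0305).

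Spindle assembly factors moved little, with 1 exception. NUSAP1, which bundles microtubules around chromatin, was at 126 and 135 TPM in sgNS against 161 and 166 TPM in METTL16 KO. It rose by 0.32 ± 0.043 (adjusted p = 4.03e-05), and by 0.16 relative to the median gene. TPX2, the activator of AURKA and the most abundant but for PTTG1 of the 50, was at 218 and 218 TPM in sgNS against 232 and 230.2 TPM in METTL16 KO. A change of 0.080 was called higher in TPM (adjusted p = 0.041) while -0.085 was called lower relative to the median gene (adjusted p = 0.035), so its direction rests on the scaling. The call in TPM was also lost without sgNS replicate 2 (adjusted p = 0.052), without METTL16 KO replicate 1 (0.19) and without METTL16 KO replicate 2 (0.15). HMMR, DLGAP5 and ASPM, proteins of spindle poles and microtubule bundles, all overlapped between groups. HMMR stood at 35.4 and 37.0 TPM against 37.1 and 35.1 TPM, with an interval of -0.12 to 0.12 on the log2 scale in TPM and a change of -0.17 relative to the median gene (adjusted p = 0.016). DLGAP5 was at 41.3 and 39.3 TPM against 40.9 and 41.6 TPM (0.036, adjusted p = 0.53, and -0.13 relative to the median gene, adjusted p = 0.034). ASPM was at 35.0 and 38.2 TPM against 37.9 and 33.0 TPM (-0.048, adjusted p = 0.55, and -0.21 relative to the median gene, adjusted p = 0.02). All 3 were thus lower relative to the median gene and not called in TPM.

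Of the 4 cytokinesis genes, ANLN moved most. ANLN, anillin, the scaffold of the contractile ring (chr7:36389821-36453791, plus), was at 64.9 and 68.8 TPM in sgNS against 106 and 100.4 TPM in METTL16 KO. It rose by 0.62 ± 0.046 (adjusted p = 4.46e-07), or by 0.46 relative to the median gene. RACGAP1, the GTPase-activating partner of KIF23 in centralspindlin, was at 98.3 and 101 TPM in sgNS against 120.0 and 117 TPM in METTL16 KO, higher in TPM (0.25, adjusted p = 1.27e-04) and not called relative to the median gene (0.087). PRC1, the midzone bundler, moved by 1.79% only, from a mean of 108 ± 0.092 (SD, n = 2) to one of 110.0 ± 0.0071 TPM, and was not called (0.026, interval -0.057 to 0.11), though lower relative to the median gene (-0.14, adjusted p = 0.0061). ECT2, the exchange factor that turns on RhoA at the midzone, overlapped at 93.8 and 97.3 TPM against 102 and 96.3 TPM (0.056, adjusted p = 0.27, and -0.11 relative to the median gene, adjusted p = 0.046). Within libraries, ANLN stood at 2.00 and 1.94 times the level of KIF23 in sgNS and at 4.05 and 4.01 times it in METTL16 KO. The ratio of RACGAP1 to KIF23, the 2 proteins of centralspindlin, was 1.58 times as high in METTL16 KO.

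The general markers of dividing cells were not called in TPM with all 4 libraries. MKI67, the Ki-67 antigen of proliferating cells, was at 28.9 and 28.9 TPM in sgNS against 28.0 and 24.8 TPM in METTL16 KO. Its change of -0.13 was not called in TPM (adjusted p = 0.082, interval -0.28 to 0.0097) and was called lower relative to the median gene (-0.30, adjusted p = 0.0017). In TPM it was -0.22 and called without METTL16 KO replicate 1 (adjusted p = 0.033) and -0.047 without METTL16 KO replicate 2 (adjusted p = 0.59). TOP2A, the topoisomerase that untangles chromosomes, overlapped at 104 and 109.6 TPM against 104 and 95.9 TPM (-0.093, adjusted p = 0.10, and -0.26 relative to the median gene, adjusted p = 7.93e-04). Without sgNS replicate 1 the change of TOP2A in TPM was -0.13 and called (adjusted p = 0.046). FOXM1, the transcription factor that switches on many G2/M genes, was at 85.0 and 86.5 TPM in sgNS against 99.1 and 102 TPM in METTL16 KO. It was higher in TPM (0.23, adjusted p = 3.47e-04) and not called relative to the median gene (0.061, adjusted p = 0.20).

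The neighbouring machinery of division was read from 8 further lists, given by counts. Of 17 genes of the anaphase-promoting complex and its regulators, 13 (76.5%) were higher and 2 (11.8%) lower in TPM, against 50.1% and 25.6% of all genes. Relative to the median gene 6 (35.3%) were higher and 5 (29.4%) lower, near the 36.4% and 36.5% of all genes. FZR1, the CDH1 activator that takes over from CDC20, was at 25.2 and 20.5 TPM in sgNS against 33.1 and 32.5 TPM in METTL16 KO (log2 fold change 0.53). Of 29 inner kinetochore genes and partners, 13 (44.8%) were higher and 7 (24.1%) lower, near the shares of all genes, and 7 (24.1%) and 12 (41.4%) relative to the median gene. CENPI and CENPT, subunits of the constitutive centromere network, each changed by -0.84. The level of CENPI was 23.2 and 21.2 TPM in sgNS against 12.1 and 12.6 TPM in METTL16 KO. MIS12, the platform on which the NDC80 complex docks, changed by 0.75. Of 20 condensin and cohesin genes, 8 (40%) were lower and 6 (30%) higher, and 11 (55%) and 3 (15%) relative to the median gene, led by PDS5B (-0.79) and the condensin subunits NCAPH (-0.75) and NCAPG (-0.59). Of 14 genes of entry and exit control, 3 (21.4%) were lower and 4 (28.6%) higher, and 6 (42.9%) and 3 (21.4%) relative to the median gene.

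Among 13 genes of the DREAM, B-MYB and NF-Y factors, 7 (53.8%) were higher and 3 (23.1%) lower in TPM, near the 50.1% and 25.6% of all genes, and 4 (30.8%) and 6 (46.2%) relative to the median gene, against 36.4% and 36.5%. E2F4, the repressor E2F of DREAM, was at 46.4 and 46.4 TPM in sgNS against 81.5 and 82.1 TPM in METTL16 KO (0.82), and NFYC, a subunit of the factor that binds CCAAT, changed by 0.73. Of 26 genes of the centrosome and microtubule nucleation, 18 (69.2%) were higher and 4 (15.4%) lower, and 10 (38.5%) and 6 (23.1%) relative to the median gene. The centriole genes CEP152 (0.83) and CENPJ (0.74) were higher, next to the lower PLK4 above.

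DNA replication and S phase genes, the phase before those of mitosis, were lower in 26 of 49 cases (53.1%) and higher in 10 (20.4%) in TPM, against 25.6% and 50.1% of all genes, and lower in 35 (71.4%) and higher in 3 (6.12%) relative to the median gene, against 36.5% and 36.4%. Their median log2 fold change was -0.17 in TPM, against 0.071 for the 50 mitotic genes. LIG1, DNA ligase I, was at 33.3 and 31.2 TPM in sgNS against 12.1 and 11.9 TPM in METTL16 KO (-1.42), and MCM6, a subunit of the replicative helicase, changed by -0.97. CCNE2, a G1/S cyclin, changed by 1.10. Of 7 CDK inhibitors, 3 (42.9%) were lower and 2 (28.6%) higher in TPM, against 25.6% and 50.1% of all genes. Relative to the median gene 4 (57.1%) were lower and 2 (28.6%) higher, against 36.5% and 36.4%. CDKN1A, the p21 inhibitor of cyclin-dependent kinases, was at 16.6 and 17.2 TPM in sgNS against 46.3 and 47.6 TPM in METTL16 KO (1.47), a larger change than that of any of the 50 mitotic genes.

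**Figure D5:**
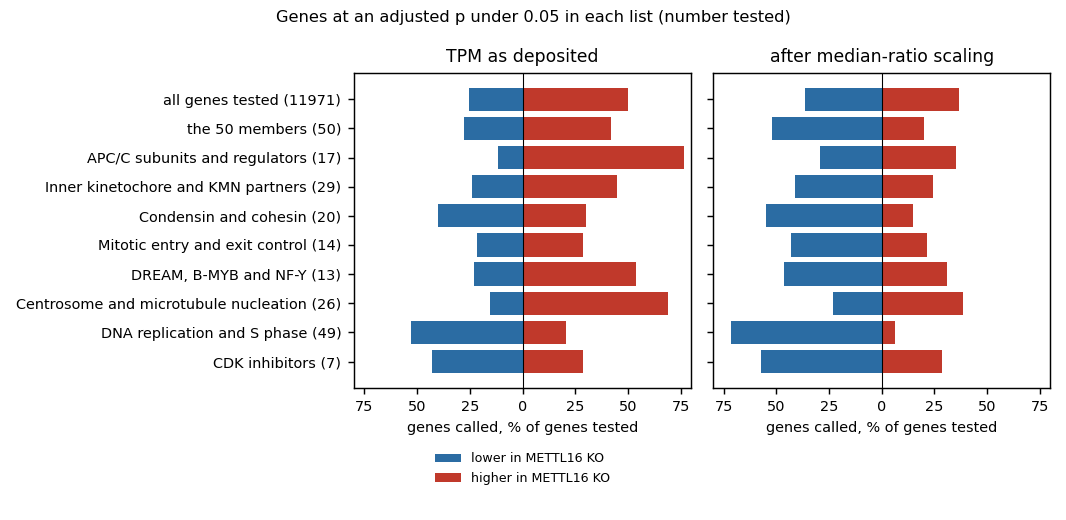
Share of the genes tested in each list that were lower (blue, to the left) or higher (red, to the right) in METTL16 KO at an adjusted p under 0.05, in percent, for TPM as deposited and after median-ratio scaling, with the number tested in brackets (the 50 members are the mitosis and spindle genes). The share of higher genes among the 50 goes from 42% to 20% and that of lower genes from 28% to 52% with the scaling, and the S phase list is lower in 53.1% and 71.4%.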

How the data were processed

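RNA sequencing of Huh7 cells gave 2 sgNS and 2 METTL16 KO libraries, grouped and numbered by their labels. The authors' reads were cleaned by Cutadapt, aligned by STAR (GRCh38) and summarised per gene by RSEM. Versions, annotation and the strand setting are not given in the sources used here. The authors deposited TPM values, since the columns sum to 1000000 although the methods name RPKM. TPM keeps no read counts, so depth and counting error are unknown. The labels name both Ribozero and a kit for mRNA. The methods name 2 biological replicates per group, without saying whether these were transduced separately, so p-values measure the spread between these libraries, which may be technical.

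From TPM, log2(TPM + 0.1) was fitted for 11971 genes with a mean of at least 1 TPM by limma 3.58.1 (R 4.3.3; lmFit, eBayes with trend), two-sided, with Benjamini-Hochberg adjustment over all of them. Fold changes are on that scale. The model was tested on simulated data in which few genes changed, so that test does not cover the shift of the median gene seen here. Intervals are 95% and unadjusted. Positions are from GENCODE 44 on GRCh38, and promoters from RefSeq. The members and lists were chosen with earlier results of these data known. Every member is named, and from each other list at most 3 genes with the largest called change. Of 181 genes listed besides, 175 were in the table (KNL1 as CASC5), and CENPW, CENPX, TFDP1, TUBGCP2, HAUS7 and CDKN1C are not analysed here. In the annotation, 12 members share exonic bases with another protein-coding gene, 10 of them on the opposite strand. Alternatives were pseudocounts of 1 and 0.01, no filter, a mean of 5 TPM, quantile normalization, median-ratio scaling, no trend, the replicate block and each library left out. The rule of 3 scalings was added after the data were seen.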

Additional observations from a re-analysis of the deposited data

How the results depend on the processing

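METTL16 stayed lower and called under every alternative, from -0.68 to -0.45 on the log2 scale. Scaling moved the counts most. Median-ratio scaling took the number of lower members from 14 to 26 and of higher members from 21 to 10. Quantile normalization took the lower members to 20 and the higher members to 13. The median log2 fold change of the 50 went from 0.071 to -0.095 with median-ratio scaling and to -0.065 with quantile normalization. The cause was not tested. With each library left out in turn, 9 to 13 members were lower, and relative to the median gene 17 to 24 were lower. The fewest lower members came without METTL16 KO replicate 2 on both scales. Of 600 values (50 members under 12 alternatives), 507 kept direction and side of the threshold, 50 lost the call, 17 gained one and 26 changed sign, in 14 members, none of them among the 24 called under all 3 scalings.

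The sign changes were of small values. With median-ratio scaling the log2 fold change was -0.12 for CCNA2 and MAD2L1, -0.097 for PLK1, -0.032 for INCENP, -0.093 for BIRC5, -0.085 for TPX2, -0.060 for KIF14, -0.051 for KIF18A, -0.13 for DLGAP5, -0.14 for PRC1 and -0.11 for ECT2. With quantile normalization it was -0.086 for CCNA2, -0.089 for PRC1, -0.059 for BIRC5, -0.071 for MAD2L1, -0.072 for KIF14, -0.037 for KIF18A, -0.11 for DLGAP5 and -0.080 for ECT2. With a library left out it ran from -0.0060 to 0.090 for CCNA2, from -0.050 to 0.0061 for CCNB1, from -0.0098 to 0.094 for MAD2L1, from -0.043 to 0.039 for HMMR and from -0.15 to 0.050 for ASPM.

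The groups share replicate numbers. Deviations of same-numbered libraries correlated at -0.044 over genes, so the numbers were not taken to pair the samples. With the replicate block, 14 members were lower and 21 higher, and 2 calls changed: TPX2 was no longer called (adjusted p = 0.065) and INCENP was called higher (0.028), as INCENP also was with a mean of at least 5 TPM (0.049). Without the trend in limma 10 members were lower and 18 higher, and the calls of BUB3 (adjusted p = 0.098), UBE2C (0.086), NDC80 (0.059), PTTG1 (0.0502), KIF11 (0.061), KIF20B (0.059) and TPX2 (0.15) were lost. Without the filter those of KIF11 (0.052) and KIF20B (0.067) were lost. The shares of all genes called without the trend or without the filter were not counted. With unknown depth, a change in the least abundant members, such as CENPE and ESPL1, has no counting error beside it.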

Other observations

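The genes below are part of the lists counted above, where they were not named. ANAPC4, a scaffold subunit of the anaphase-promoting complex, was at 30.7 and 32.9 TPM in sgNS and 47.4 and 47.8 TPM in METTL16 KO (log2 fold change 0.58, limma), and ANAPC10, its substrate co-receptor, changed by 0.45. Among entry and exit genes, the checkpoint kinase CHEK2 was at 48.1 and 47.5 TPM in sgNS and 64.6 and 67.6 TPM in METTL16 KO (0.47). BORA, the cofactor with which AURKA activates PLK1, was at 11.5 and 11.9 TPM in sgNS and 15.9 and 15.8 TPM in METTL16 KO (0.43). CCNH, the cyclin of the CDK-activating kinase, was at 48.2 and 49.6 TPM in sgNS and 37.8 and 35.9 TPM in METTL16 KO (-0.41). HAUS5, a subunit of the augmin complex that branches spindle microtubules, changed by -0.73, and E2F5, another repressor E2F, by -0.48. Of the CDK inhibitors besides CDKN1A, CDKN2C was lower (-0.73) and CDKN2B higher (0.44). All of these changes passed an adjusted p under 0.05 in TPM without overlap between groups.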
